A study of Mus musculus with 6 samples.

Results

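The genes described here are 89 mouse genes that carry the family names of the DNA replication and mitosis machinery, of 23621 genes in all. They were chosen by symbol alone: Mcm, Cdk and Cdc symbols followed by a number (Cdc42 left out), Cenp symbols, the A, B, D and E cyclins, Bub1 and Bub1b, the Aurora kinases, Plk1 to Plk4 and Orc1 to Orc6. RNA was sequenced from cortex at postnatal day 0, in 3 libraries of wild-type littermates and 3 libraries of Tle4-/- null mutants, all on a background mixed from C57BL/6J, 129S6 and CD1. Tle4 is a transcriptional co-repressor of the Groucho family, made in deep-layer cortical neurons. The labels do not say how the allele was made, nor whether each library comes from its own animal, so p-values measure only the spread between these samples, which may be technical.

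A cell that will divide first licenses its replication origins: the origin recognition complex and Cdc6 load the ring of Mcm2 to Mcm7 onto DNA, and Cdc7, cyclin-dependent kinases (CDKs), Cdc45 and Mcm10 then turn that ring into an active helicase. Cyclin B with Cdk1, the Aurora and Polo kinases, the Bub1 checkpoint and the centromere proteins carry out mitosis, and the anaphase-promoting complex (APC/C) ends it by marking cyclins for destruction. In the newborn cortex most neurons have stopped dividing, and these genes are used mainly by the remaining progenitors and by glial precursors. The family names also cover genes with other work, such as the neuronal kinase Cdk5, the chaperone partner Cdc37 and the activity-induced kinase Plk2.

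As a check of the genotype labels, Tle4 was lower in the mutant. In the wild type it stood at 198, 142 and 166 CPM (normalized counts scaled to the library size). In the mutant it stood at 69.3, 86.8 and 86.8 CPM, a log2 fold change of -1.06 (SE 0.14, edgeR adjusted p = 0.0377). The ratio of mutant to wild type was 0.480 (95% interval 0.383 to 0.600), so Tle4 transcript remained in the mutant libraries. The call of Tle4 was lost with limma-voom (adjusted p = 0.0646) and with the replicate number as a block (edgeR adjusted p = 0.207). It was also lost without the genes of X, Y and the mitochondrial chromosome (edgeR adjusted p = 0.0532). Leaving out any library other than the wild type replicate 2 lost it too (largest edgeR adjusted p = 0.162). The libraries held 18617408 to 21632607 counts, of which the 89 genes took 65671 to 76465 counts, or 0.339% to 0.370%. Xist had 66194 to 79080 counts in every mutant library and 11 to 37 in the wild type, so sex and genotype cannot be told apart in any comparison below. Of the wild-type libraries, 2 had 1463 and 1891 counts of the Y-linked Ddx3y and replicate 3 had 2. Wild type replicate 1 also stood apart in 8 meninges markers, whose summed level was 35.1 CPM there and 255 to 694 CPM in the other 5 libraries.

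Not one of the replication and mitosis genes passed the test between genotypes. Of the 89 genes, 88 passed the filter on low counts, and 0 of 88 had an adjusted p under 0.05 in edgeR's quasi-likelihood test, against 0.111% of the 16274 genes tested (0.0492% higher and 0.0614% lower in the mutant). The smallest edgeR adjusted p of the 88 was 0.9996. At an unadjusted p under 0.05 there were 3 of the 88, or 3.41%, against 3.45% of all genes tested; 2 were higher in the mutant (2.27%, against 1.71%) and 1 was lower (1.14%, against 1.73%). DESeq2 and limma-voom also called 0 of them. The gene left out was Cdk15, a little-studied CDK, with 3, 6 and 0 counts in the wild type and 2 in each mutant library. In the authors' deposited table too, 0 of these genes had an adjusted p under 0.05, against 68 genes in all.

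The differences were small and fell on both sides of 0. The median log2 fold change was -0.02 over the 88 genes and -0.01 over all genes tested. Above 0 were 37 of the 88 genes, against 7922 of the 16274 genes tested. The median size of the change, whatever its sign, was 0.09 on the log2 scale, against 0.12 over all genes tested, and the median SE was 0.19 against 0.18. A p above the threshold does not show that a gene was equal in both genotypes, so the 95% intervals matter here. In 82 of the 88 genes the interval of the mutant to wild-type ratio lay between 0.5 and 2, and in 52 of them it lay between 0.667 and 1.5. The 6 genes with a wider interval were Cdk6, Cdk18, Cdc20b, Ccna1, Cdc14b and Aurka. In bulk RNA such as this, fewer dividing cells and less RNA per cell cannot be told apart.

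**Figure D1:**
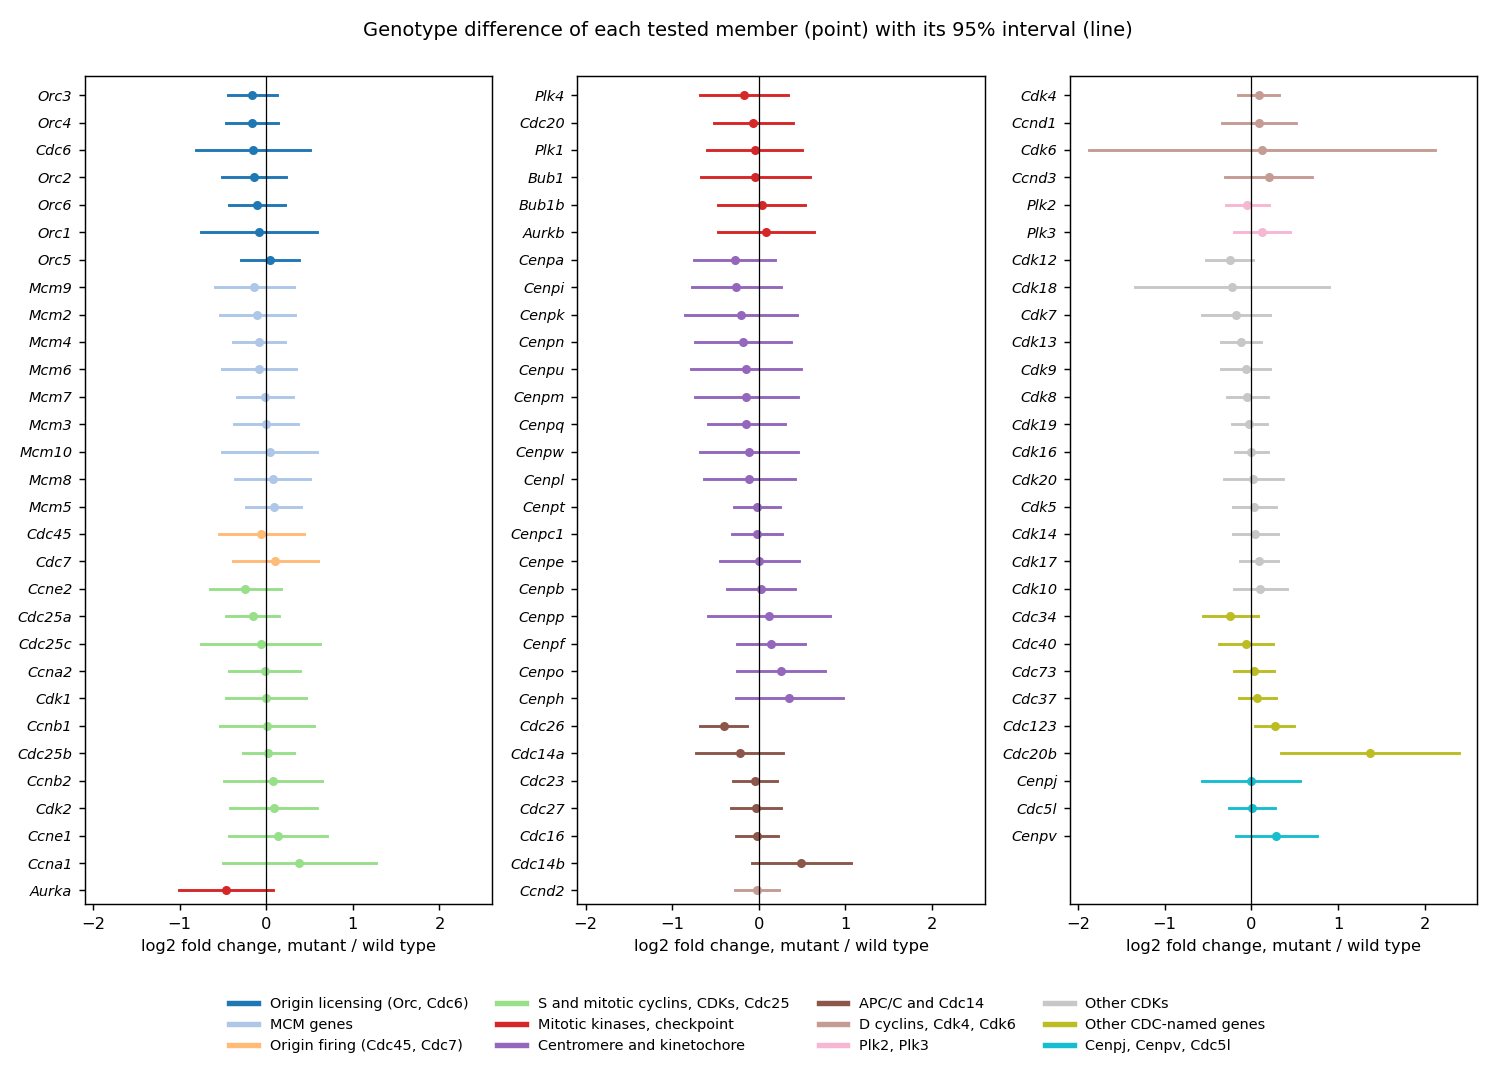
Log2 fold change of the mutant over the wild type (horizontal axis) for each of the 88 tested genes, as a point with its 95% interval as a line, coloured by role and ordered by value within a role. The line at 0 marks no difference; 85 of the 88 intervals cross it, and those of Cdc26, Cdc123 and Cdc20b do not.

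Levels between genes were compared on the deposited FPKM values, which are per gene length. Genes of replication and mitosis proper had mostly low levels in this tissue. Grouped by role, 53 tested genes, called the division genes below, act in origin licensing, helicase loading and firing, the S-phase and mitotic cyclins and CDKs, the mitotic kinases or the centromere; their median level was 1.89 FPKM, and 42 of the 53 were under 5 FPKM. The other 35 tested genes hold those with other work and also the 5 genes of the G1 group (D cyclins, Cdk4, Cdk6) and the 6 of the APC/C group. They had a median of 10.6 FPKM, and 13 of the 35 were under 5 FPKM. On a second length scale, CPM per kilobase of annotated exon, the medians were 1.84 and 8.82. Over all genes tested the medians were 3.98 FPKM and 4.95 CPM per kilobase. The 7 origin licensing genes, part of the 53, had medians above those, 6.15 FPKM and 7.93 CPM per kilobase.

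Plk2, a Polo-like kinase induced by neuronal activity that acts at synapses, had the highest level by FPKM. Its level was 144, 116 and 138 FPKM in the wild type and 122, 136 and 126 FPKM in the mutant. It alone made up 15.6% to 18.9% of the summed FPKM of the 89 genes, and the 2 genotypes overlapped. Next came Cdc37, the co-chaperone that hands kinases to Hsp90, with a mean of 38.9 FPKM, and then the neuronal PCTAIRE kinases Cdk17 (37.5 FPKM) and Cdk16 (33.3 FPKM). Cdk5, the kinase that works with p35 in migrating and differentiating neurons, had a mean of 28.7 FPKM, and the Mediator kinase Cdk19 also had 28.7 FPKM. The G1 kinase Cdk4 (25.3 FPKM) and the APC/C subunit Cdc16 (23.2 FPKM) were close behind. Among the 53 division genes the highest means by FPKM were those of Orc6 (24.6 FPKM), the centromere DNA-binding protein Cenpb (24.6 FPKM) and the kinetochore linker Cenpt (19.4 FPKM). At the other end, the licensing factor Cdc6 had a mean of 0.228 FPKM, cyclin B1 (Ccnb1) 0.513 FPKM and the checkpoint kinase Bub1 0.846 FPKM.

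**Figure D2:**
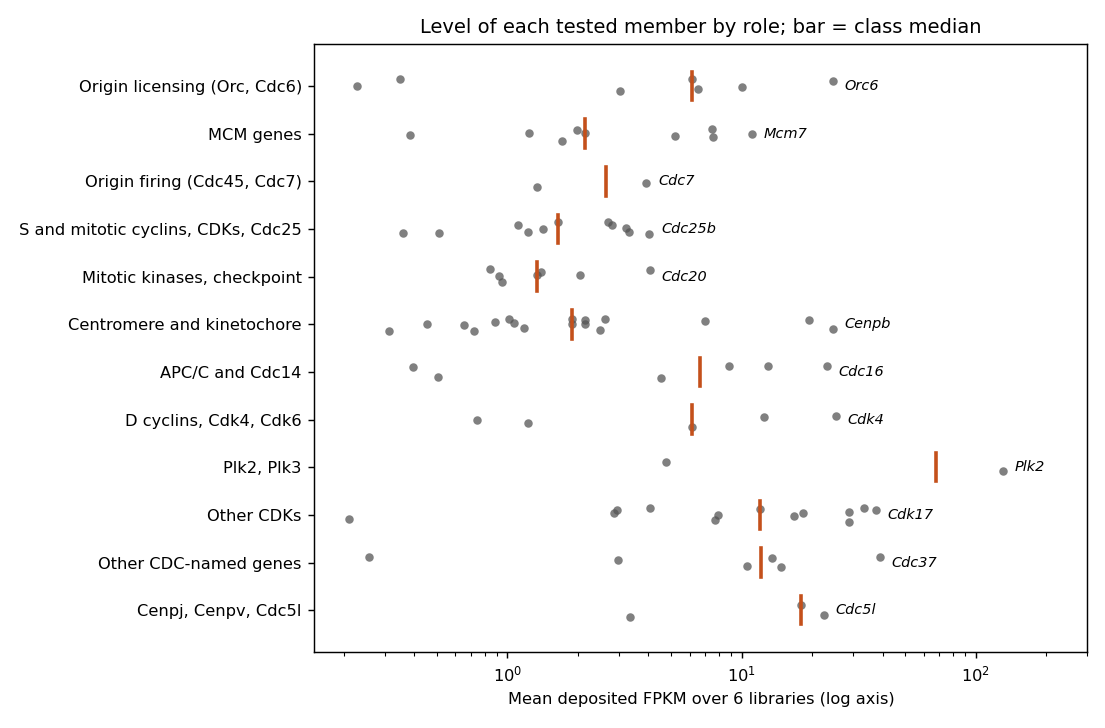
Mean deposited FPKM over the 6 libraries (horizontal log axis) of each tested gene as a grey point, by role (rows), with the median of the role as a vertical bar and the gene of the highest level named. Plk2 at 130 FPKM lies to the right of all others, while most points for mitotic kinases, mitotic cyclins and centromere genes lie under 5 FPKM.

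The 2 length scales did not order every gene alike. The gene length implied by the deposited counts and FPKM was 0.27 to 2.62 times the annotated exon length over these genes, and which length was used is not given in the sources used here. Cdc37 ranked 2 by FPKM and 20 by CPM per kilobase of exon, whereas Plk2 was first on both scales. Its lead differed between them: by FPKM it had 130 against 38.9 for Cdc37, the next gene, and by CPM per kilobase of exon it had 81.5 against 53.4 for Cdk16. On the second scale Cdk4 ranked 3 with 49.9 and Cdc16 ranked 5 with 30.0 CPM per kilobase. The order of the division genes changed too: Cenpb (24.6) came before Mcm7 (17.1) and Orc6 (16.5), and Cenpt ranked 22 with 9.44. The exons of 37 of the 89 genes overlap another gene of the table, in 34 cases on the opposite strand. Whether counting used the strand is not given in the sources used here, so reads of such pairs may be mixed; Mcm7, which shares 385 exon bases with Ap4m1 and Cops6, and Orc6, which shares 171 with Vps35, are cases.

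The promoters of the division genes carried sequence features that the choice by name did not use. Promoter windows from RefSeq on GRCm38.p6, from 250 bases before to 50 bases after an annotated start, were matched by symbol for 78 of the 89 genes and gave 90 windows, set against 32851 windows of all genes. Elements of 3 kinds known from cell cycle promoters were searched on both strands as exact letters: the cell cycle genes homology region or CHR (TTTGAA or TTCGAA), the CCAAT box (CCAAT), and an E2F site (TTTCCCGC, TTTGGCGC, TTTGCCGC or TTTCGCGC). CHR elements and CCAAT boxes are bound by the DREAM and MuvB complexes and by NF-Y at late cell cycle genes, and E2F sites by E2F factors at genes of the G1 to S transition.

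The sequences below are the 150 bases up to the annotated start, 5′ to 3′ on the gene's own strand, with every match to a searched element in capitals (on either strand, so that ATTGG is a CCAAT box on the other strand). They were chosen to show a helicase gene with E2F sites (Mcm6, chr1:128359706-128359855, minus strand), 3 mitotic genes with CCAAT boxes or CHR elements (Cdk1, chr10:69352913-69353062, minus; Cdc20, chr4:118437344-118437493, minus; Ccnb2, chr9:70421555-70421704, minus) and, for contrast, the most abundant gene, Plk2 (chr13:110394894-110395043, plus), which has none.
Mcm6: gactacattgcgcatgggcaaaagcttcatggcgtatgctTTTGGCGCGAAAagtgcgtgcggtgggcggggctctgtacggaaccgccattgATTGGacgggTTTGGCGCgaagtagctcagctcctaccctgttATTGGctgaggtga
Cdk1: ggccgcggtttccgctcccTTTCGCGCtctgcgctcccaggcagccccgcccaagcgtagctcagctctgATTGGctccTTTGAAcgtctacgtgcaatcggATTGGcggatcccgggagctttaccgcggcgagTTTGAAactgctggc
Cdc20: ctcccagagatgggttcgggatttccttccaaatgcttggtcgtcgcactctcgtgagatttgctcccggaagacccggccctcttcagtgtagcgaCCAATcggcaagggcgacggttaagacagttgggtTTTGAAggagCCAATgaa
Ccnb2: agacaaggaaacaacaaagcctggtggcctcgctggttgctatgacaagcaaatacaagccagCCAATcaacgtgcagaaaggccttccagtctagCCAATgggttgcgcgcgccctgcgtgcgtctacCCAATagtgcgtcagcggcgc
Plk2: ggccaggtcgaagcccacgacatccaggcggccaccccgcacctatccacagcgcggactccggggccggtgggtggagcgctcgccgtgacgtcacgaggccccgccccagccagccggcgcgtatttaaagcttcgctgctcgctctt

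In Mcm6 the E2F letters occur 47 bases before the start and, as a pair of overlapping matches on opposite strands, at 110 and 106 bases before it. Cdk1 has CHR letters 71 and 15 bases before the start, beside CCAAT boxes at 80 and 48 bases and E2F letters at 131 bases. Ccnb2 has CCAAT boxes 87, 54 and 21 bases before the start. Its CHR letters lie outside the printed stretch, 167 bases before the start and 5 bases after it.

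Over all windows of the division genes (55 windows of 48 genes), 76.4% held a CCAAT box, against 37.4% of all promoter windows, and 36.4% held at least 2 of them, against 11.7%. E2F letters were found in 25.5% of these windows, against 2.26% of all windows, and CHR letters in 34.5%, against 19.2%. In the 35 windows of the other members the shares were 28.6% for CCAAT, 0 of 35 for E2F and 11.4% for CHR. All 9 windows of Mcm genes held a CCAAT box and 5 of the 9 held E2F letters, while 5 of the 6 windows of mitotic kinase and checkpoint genes held CHR letters. The shares describe letters in a fixed window, some genes have more than 1 window, and the bases after the start were found in an annotated transcript for 82 of the 90 windows. A match is not evidence that a factor binds there.

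**Figure D3:**
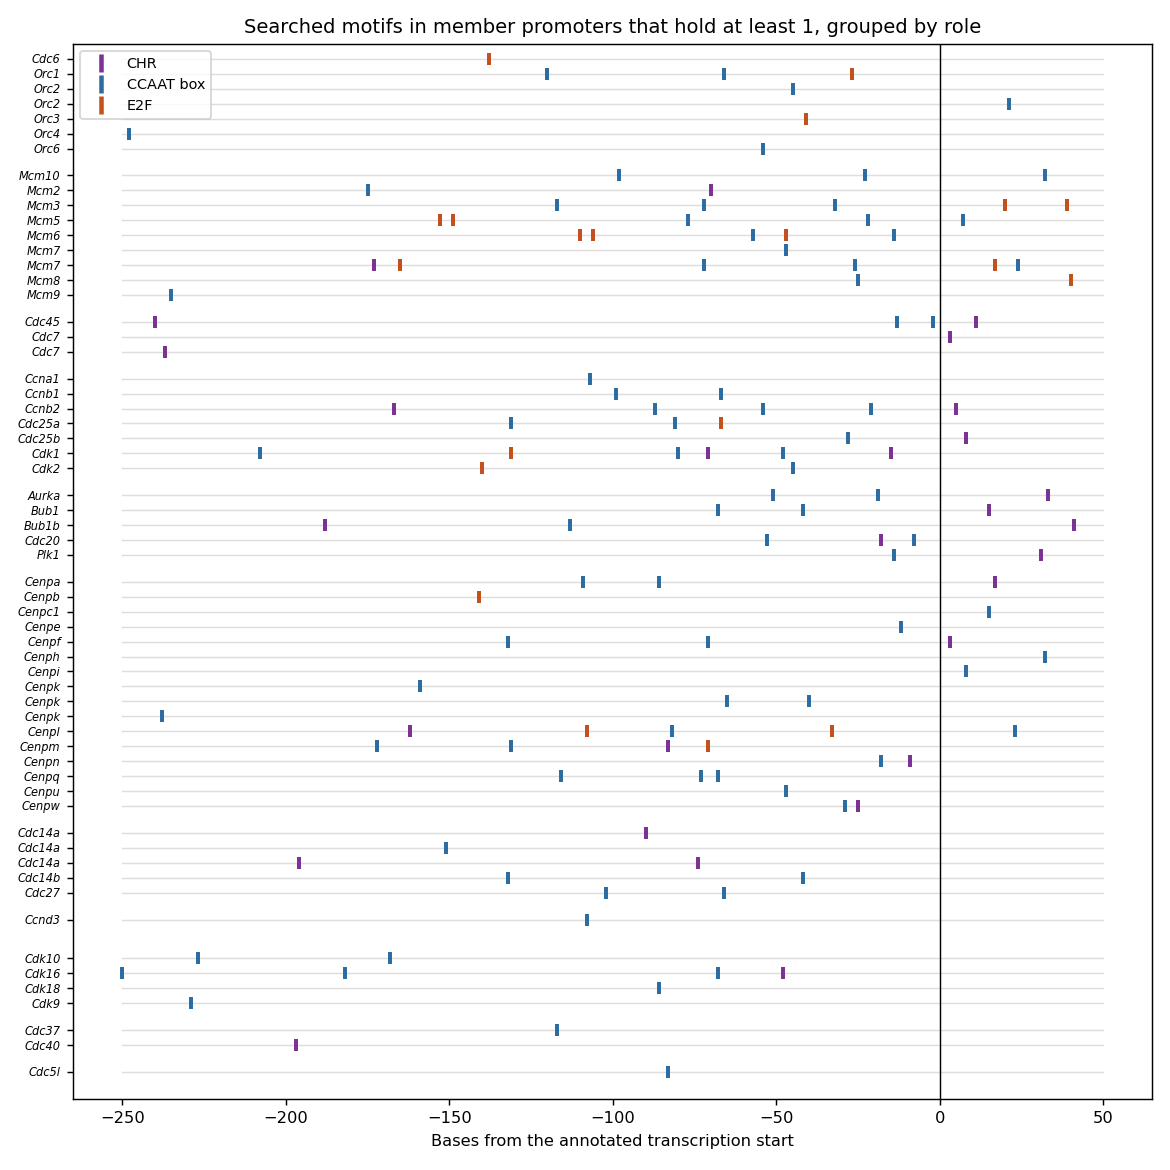
Position of each match to the CHR, CCAAT and E2F letters (coloured ticks) in bases from the annotated transcription start (horizontal axis), for promoter windows of the 89 genes that hold at least 1 match (rows, grouped by role; a gene with several windows has several rows). The rows of Mcm, mitotic and centromere genes hold most ticks, and blue CCAAT ticks gather in the 150 bases before the start.

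The origin licensing genes leaned below 0 in the mutant without passing the test. The group holds the 6 subunits of the origin recognition complex, Orc1 to Orc6, and Cdc6, the factor that loads the helicase with it. Of the 7 genes, 6 had a log2 fold change below 0, between -0.16 (Orc3) and 0.05 (Orc5), with a median of -0.14; 0 of 7 had an unadjusted p under 0.05. Orc3 had the smallest p of the group and stood at 88.2, 73.0 and 89.4 CPM in the wild type and 67.6, 71.8 and 84.5 CPM in the mutant. The mutant replicate 3 lay inside the wild-type range, and the 95% interval of the ratio ran from 0.733 to 1.09. The licensing score is the mean log2 CPM of the group after centring each gene. For wild type it came to -0.04, 0.02 and 0.18, and for mutant to -0.05, -0.10 and -0.01. Wild type replicate 3 was the highest and the groups overlapped; without it the median log2 fold change was -0.04.

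The MCM genes lay close to 0. Mcm2 to Mcm7 form the helicase ring, Mcm8 and Mcm9 form a related complex that acts in recombination, and Mcm10 is a firing factor. The 9 log2 fold changes ran from -0.14 (Mcm9) to 0.08 (Mcm5), with a median of -0.02. Mcm6 stood at 48.5, 41.4 and 45.6 CPM in the wild type and 29.7, 47.9 and 50.2 CPM in the mutant. Mutant replicate 1 was the only low library, and it also had the lowest MCM score, -0.20, against -0.04 to 0.14 in the other 5 libraries. The ring holds its 6 subunits in equal number, but their transcripts differed in level. They ran from 1.71 FPKM for Mcm3 and 2.15 FPKM for Mcm2 to 7.53 FPKM for Mcm6 and 11.1 FPKM for Mcm7. By CPM per kilobase of exon Mcm2 was the lowest at 2.76, with 3.06 for Mcm3, 9.40 for Mcm6 and 17.1 for Mcm7. For Mcm3 the ratio of mutant to wild type had a 95% interval of 0.772 to 1.29.

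For the firing factors the intervals were of similar width. Cdc7, the kinase that phosphorylates the loaded helicase, had a log2 fold change of 0.10 (interval of the ratio 0.764 to 1.51). Its CPM was 22.9, 32.5 and 33.5 in the wild type and 40.0, 23.4 and 32.0 in the mutant, so each genotype had 1 library near 23 CPM. Cdc45, a component of the active helicase, had a log2 fold change of -0.06 (interval of the ratio 0.685 to 1.35).

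The S-phase and mitotic cyclins and CDKs centred on 0, with a median log2 fold change of 0.01 over 11 genes, 6 of them above 0. Cdk1, the kinase that drives entry into mitosis, stood at 7.13, 9.83 and 7.85 CPM in the wild type and 8.65, 9.11 and 7.04 CPM in the mutant. The genotypes overlapped fully, the means were 8.27 ± 1.40 and 8.27 ± 1.09 CPM (SD, n = 3 each), and the ratio had an interval of 0.727 to 1.37. Its partner Ccnb1 had 3.56, 3.86 and 4.94 CPM in the wild type and 4.21, 4.71 and 3.49 CPM in the mutant. Cyclin A2 (Ccna2), the cyclin of S phase and G2, had a log2 fold change of -0.02, and its ratio had an interval of 0.742 to 1.31. The E cyclins, which start S phase with Cdk2, differed in sign: Ccne2 had the smallest p of the group with a log2 fold change of -0.24 (interval of the ratio 0.635 to 1.13), and Ccne1 had 0.13. Cdc25b, the phosphatase of the group with the highest level at 4.04 FPKM, had a log2 fold change of 0.02. Ccna1, the cyclin known mainly from germ cells, had 10 to 32 counts a library and a wide interval, 0.708 to 2.40, with 10 counts in the wild type replicate 3.

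The mitotic kinases varied more among libraries of one genotype than between the genotypes. The group holds the Aurora kinases Aurka (spindle poles) and Aurkb (centromeres), Plk1 and Plk4 (mitosis and centriole duplication), the checkpoint kinases Bub1 and Bub1b, and Cdc20, the APC/C activator that the checkpoint restrains. The score of the group came to -0.21, 0.08 and 0.27 in the wild type and 0.17, -0.06 and -0.25 in the mutant. Each genotype thus had 1 library near the bottom and 1 near the top. Of the 7 genes, 2 had a log2 fold change above 0, the median was -0.05 and 0 of 7 had an unadjusted p under 0.05.

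Aurka had the largest change of the group, a log2 fold change of -0.47 (SE 0.24). It stood at 5.50, 5.12 and 7.47 CPM in the wild type and 5.19, 3.87 and 3.96 CPM in the mutant. Mutant replicate 1 lay inside the wild-type range, and the interval of the ratio ran from 0.495 to 1.05. Aurkb, in contrast, had a log2 fold change of 0.08, with 3.72 CPM in the wild type replicate 1 and 5.42 to 6.24 CPM in the other 5 libraries. Plk1 (-0.05), Bub1 (-0.04), Bub1b (0.03) and Cdc20 (-0.07) were all within 0.1 of 0 on the log2 scale. Cdc20 had the highest level of the group at 4.07 FPKM.

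Of 17 tested centromere and kinetochore genes, 11 lay below 0 and 0 had an unadjusted p under 0.05; their median log2 fold change was -0.11. Leaving out the wild type replicate 2 or 3 or the mutant replicate 2 brought that median to -0.04, -0.03 or -0.02. Cenpa, the histone H3 variant that marks the centromere, had the smallest p, with 8.71, 8.80 and 10.8 CPM in the wild type and 9.22, 7.85 and 6.26 CPM in the mutant (log2 fold change -0.28, interval of the ratio 0.597 to 1.14). Mutant replicate 1 lay within the wild-type range. Cenpe, the kinetochore motor, had a log2 fold change of 0.01, and Cenpf, a large kinetochore protein of G2 and mitosis, had 0.14. Cenph, a subunit of the inner kinetochore, lay on the other side at 0.35, with 3.46, 3.46 and 4.03 CPM in the wild type and 3.09, 5.23 and 5.68 CPM in the mutant, so its genotypes overlapped too.

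Cenpi, another inner kinetochore subunit, was the 1 gene of the 53 division genes whose genotypes did not overlap. It stood at 3.56, 3.86 and 4.14 CPM in the wild type and 3.41, 2.88 and 3.34 CPM in the mutant. The gap between the nearest libraries was small, the log2 fold change was -0.26 and the interval of the ratio ran from 0.584 to 1.19. Cenpi is X-linked (X, 134308084 to 134362639 on GRCm38), and as given above all mutant libraries had high Xist counts.

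**Figure D4:**
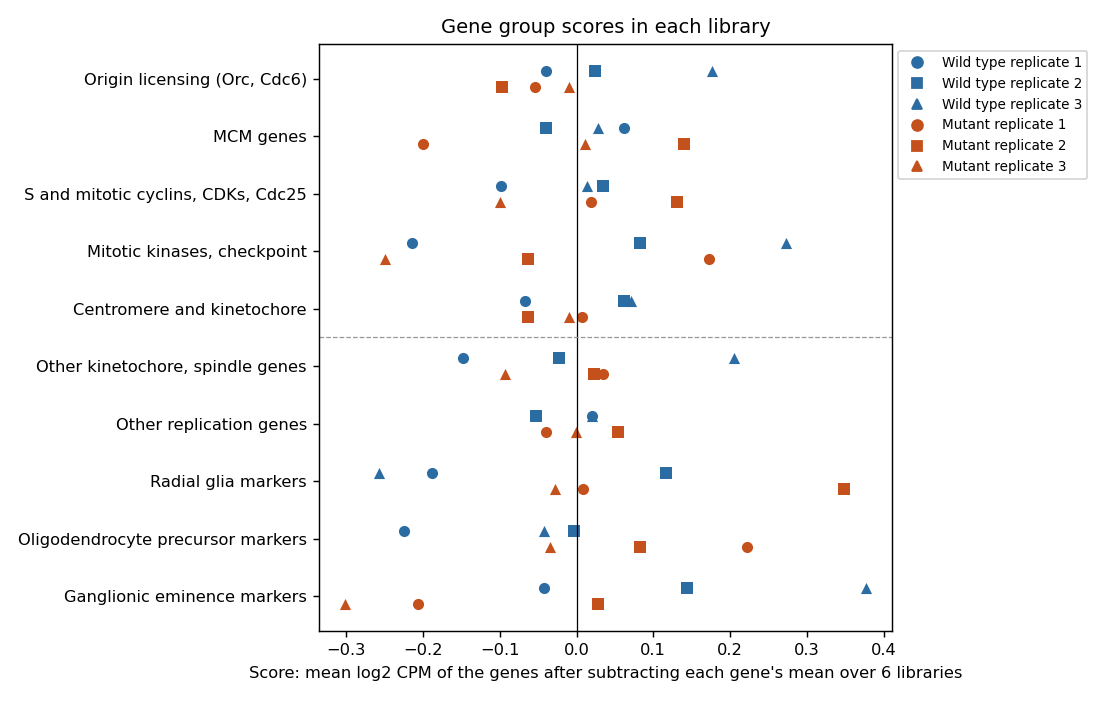
Score of 5 groups of replication and mitosis genes (above the dashed line) and of 5 lists of other genes (below it) in each library: the mean log2 CPM of the genes after subtracting each gene's mean over the 6 libraries. Blue marks wild type and orange mutant, with circle, square and triangle for replicates 1, 2 and 3. For the mitotic kinases the 2 genotypes spread over the same range, from -0.21 to 0.27 in the wild type and from -0.25 to 0.17 in the mutant.

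The genotypes were fully separate in 5 of the 88 genes (5.68%), and in 7.93% of all genes tested. Of these, 2 were higher in every mutant library (2.27%, against 4.18% of all genes tested) and 3 were lower (3.41%, against 3.75%). Beside Cenpi they were Cdc26, Cdc123, Cdc20b and Cdk12. The first 3 of these 4 are the genes with an unadjusted p under 0.05.

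Cdc26 encodes a small subunit of the APC/C that stabilises its Cdc16 subunit (chromosome 4, 62383654 to 62408642). It stood at 46.2, 39.0 and 44.3 CPM in the wild type and 34.3, 33.2 and 30.1 CPM in the mutant. The highest mutant library was under the lowest wild-type one, with means of 43.2 ± 3.77 and 32.5 ± 2.15 CPM (SD, n = 3 each). The mutant level was 0.754 of the wild type (interval 0.626 to 0.908; log2 fold change -0.41, SE 0.12). Its unadjusted p was under 0.05 with each library left out. The smallest adjusted p that any of the 13 alternatives gave for a replication or mitosis gene was 0.388, for Cdc26 in the DESeq2 Wald test. In the authors' deposited table its unadjusted p was 0.0264, that of Cdc20b was 0.0125 and that of Cdc123 was 0.0779.

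The partners of Cdc26 in the APC/C did not share that size of difference. Cdc16 stood at 95.8, 96.1 and 89.9 CPM in the wild type and 102, 92.5 and 82.6 CPM in the mutant, with a log2 fold change of -0.03. Cdc23 had -0.04 and Cdc27 had -0.03, and the intervals of the 3 ratios together spanned 0.8 to 1.19. Cdc14a and Cdc14b, phosphatases related to the yeast mitotic exit phosphatase, lay at -0.22 and 0.49, the latter with 2.75, 3.95 and 2.96 CPM in the wild type and 3.74, 5.13 and 4.75 CPM in the mutant (interval of the ratio 0.946 to 2.09). Mutant replicate 1 was the only one of its mutant libraries inside the wild-type range.

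Cdc123, an assembly factor for the translation initiation factor eIF2, stood at 57.3, 56.8 and 52.7 CPM in the wild type and 68.0, 69.4 and 64.0 CPM in the mutant. The mutant level was 1.21 times the wild type (interval 1.03 to 1.41; log2 fold change 0.27, SE 0.10). Its unadjusted p was no longer under 0.05 without the wild type replicate 3, the mutant replicate 1 or the mutant replicate 2. The exons of Cdc123 share 146 bases with Nudt5 on the opposite strand.

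Cdc20b, a relative of Cdc20 known from multiciliated cells, rested on few counts: 3, 6 and 8 in the wild type and 15, 14 and 15 in the mutant. All 3 mutant libraries were above all wild-type libraries, with a log2 fold change of 1.37 (SE 0.46, interval of the ratio 1.27 to 5.27). Its mean level was 0.256 FPKM, and a filter at a mean of 1 CPM removed it. Its unadjusted p was not under 0.05 in the DESeq2 Wald test or without the wild type replicate 1, and its log2 fold change ran from 1.08 to 1.76 with 1 library left out.

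Cdk12, a kinase of RNA polymerase II elongation, stood at 52.6, 51.5 and 57.6 CPM in the wild type and 43.2, 51.3 and 41.6 CPM in the mutant. The wild type replicate 2 and the mutant replicate 2 nearly touched, and the log2 fold change was -0.25 (interval of the ratio 0.698 to 1.01). The other CDKs of this group ran from -0.22 (Cdk18, with few counts) and -0.18 (Cdk7, of the CDK-activating kinase) to 0.11 (Cdk10). Cdk5 lay at 0.03, Cdk17 at 0.09 and the X-linked Cdk16 at 0.00, whose ratio had an interval of 0.876 to 1.14. Of this group of 13 tested genes, 6 were above 0 and the median was -0.02. Plk2 had a log2 fold change of -0.05 (interval of the ratio 0.816 to 1.15) and the related stress-responsive kinase Plk3 had 0.12. Cdc37 had 0.07 (interval of the ratio 0.907 to 1.22).

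**Figure D5:**
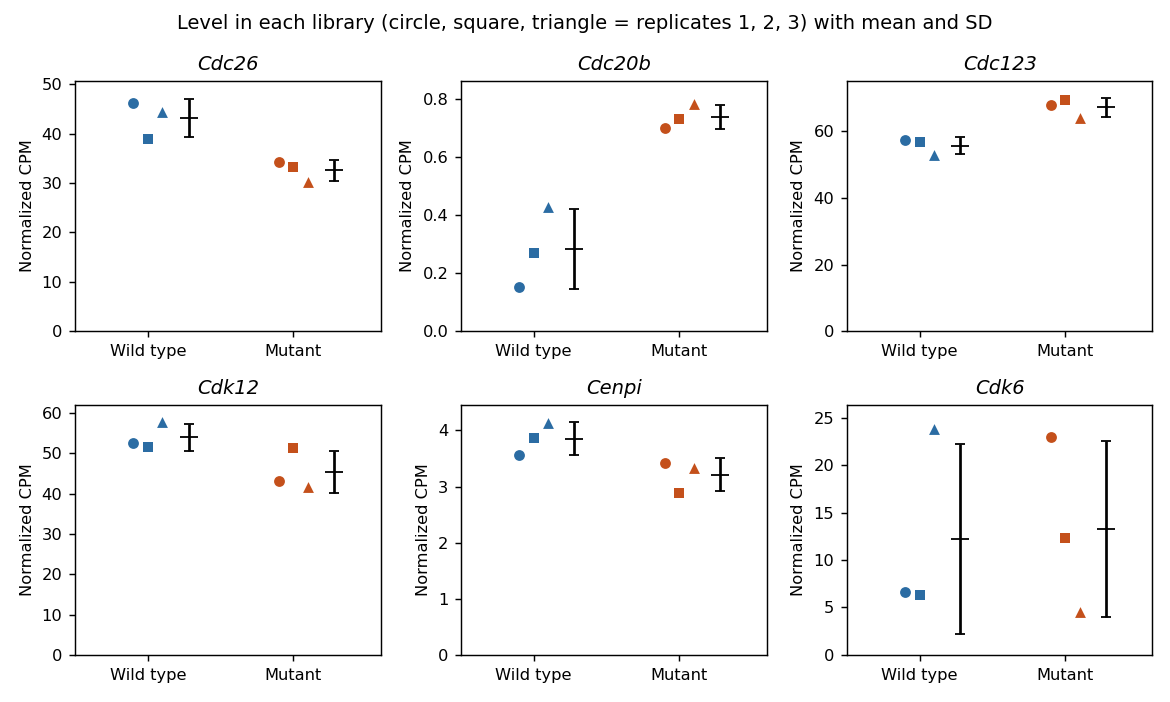
Normalized CPM (vertical axes, from 0) of 6 genes in each library, wild type in blue and mutant in orange, with circle, square and triangle for replicates 1, 2 and 3; the line and bars beside the points are the mean and SD of 3 libraries. Cdc26, Cdc20b, Cdc123, Cdk12 and Cenpi show no overlap between genotypes, while Cdk6 runs from 4.48 to 23.8 CPM with both genotypes across the range.

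Cdk6, which with the D cyclins and Cdk4 carries cells through G1, was the gene that varied most among libraries, in both genotypes. It stood at 6.67, 6.28 and 23.8 CPM in the wild type and 23.0, 12.3 and 4.48 CPM in the mutant. The wild type replicate 3 and the mutant replicate 1 were high, and the highest library was 5.31 times the lowest. Of the 11882 tested genes with a mean of at least 5 CPM, 1.27% had a ratio as large or larger, and the next of the replication and mitosis genes at that level was Aurka, at 1.93. The log2 fold change was 0.12, with an interval of the ratio from 0.272 to 4.35. Fam133b, its neighbour on chromosome 5, did not vary with it and had 574 to 624 counts. Gm17590, which overlaps the exons of Cdk6 on the opposite strand, had 0 to 2 counts, too few to show any variation.

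The other G1 genes varied less among libraries than Cdk6. Cdk4, with the highest level of the G1 group at 25.3 FPKM, stood at 170, 156 and 146 CPM in the wild type and 185, 160 and 155 CPM in the mutant (log2 fold change 0.09, interval of the ratio 0.9 to 1.25). Cyclin D2 (Ccnd2), the D cyclin of cortical progenitors, had 137 to 169 CPM over the 6 libraries and a log2 fold change of -0.02. Ccnd1 ran from 20.7 to 32.4 CPM and Ccnd3 from 16.1 to 27.4 CPM, with log2 fold changes of 0.09 and 0.20. Of the 5 genes, 4 were above 0 and 0 had an unadjusted p under 0.05.

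The remaining members are genes whose names recall other roles. Cenpv, named for a centromere association and also known from the cytoskeleton, had 61.6, 45.4 and 32.4 CPM in the wild type and 55.5, 54.8 and 59.8 CPM in the mutant. Its log2 fold change was 0.29 (interval of the ratio 0.881 to 1.69) and reached 0.54 without the wild type replicate 1 (edgeR adjusted p = 0.844). The mutant libraries lay close together inside the wide wild-type range. The splicing factor Cdc5l and the centriole protein Cenpj both had 0.00. Cdc34, a ubiquitin-conjugating enzyme, had a log2 fold change of -0.24 (interval of the ratio 0.678 to 1.05).

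Other genes of the same pathways, taken from lists of genes outside the name families, also had 0 calls, against 0.111% of all genes tested. At so low a share, a count of 0 in lists of this size says little. Of 36 further replication genes (clamp, polymerases, GINS, nucleotide supply, chromatin assembly), 19 were above 0, the median log2 fold change was 0.00 and 0 had an unadjusted p under 0.05. The smallest p values of that list were those of Chaf1a, a subunit of the chromatin assembly factor (log2 fold change -0.30, interval of the ratio 0.631 to 1.04), Gins1, a subunit of the active helicase (0.36, 0.903 to 1.83), and Rfc4, a clamp loader subunit (0.28, 0.886 to 1.67). Of 43 further kinetochore, spindle and condensin genes, 18 were above 0 with a median of -0.03, and 0 had an unadjusted p under 0.05; those with small p values included the cohesin protector Sgol1 (-0.24) and the condensin subunit Ncapd2 (-0.12). Of 33 cell cycle control genes, 14 were above 0 with a median of -0.04, and 0 had an unadjusted p under 0.05. The smallest p values there were those of Lin54, the MuvB subunit that binds CHR elements (-0.40, 0.567 to 1.02), the CDK inhibitor Cdkn1b (-0.47, 0.501 to 1.04) and E2f1 (-0.29, 0.623 to 1.08). The genotypes did not overlap in 4 of the 36 replication genes, 0 of the 43 kinetochore, spindle and condensin genes and 2 of the 33 control genes. Over all genes tested that share was 7.93%.

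Scores of the further kinetochore and spindle genes were -0.15, -0.02 and 0.21 in the wild type and 0.03, 0.02 and -0.09 in the mutant. As for the mitotic kinases, wild type replicate 1 was the lowest and wild type replicate 3 the highest of that genotype. The further replication genes stayed between -0.05 and 0.05 in every library.

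Markers of progenitors, neurons and other cells that a cortex dissection can hold did not all lie on one side, and 0 of them passed the test. These lists are not confined to dividing cells. Of all 16274 genes tested, 7922 were above 0, 3.45% had an unadjusted p under 0.05 in edgeR and 0.111% passed the test. Radial glia markers had a median log2 fold change of 0.22, with 10 of 11 above 0 and 2 at an unadjusted p under 0.05 (Ptprz1 at 0.33 and Nes at 0.25, both named after their values were seen). Their summed level was 1405 to 1849 CPM in the wild type and 1803 to 2088 CPM in the mutant. Oligodendrocyte precursor markers had a median of 0.17, with 6 of 6 above 0 and 1 at an unadjusted p under 0.05. Their summed level was 248 to 280 CPM in the wild type and 287 to 319 CPM in the mutant. Ganglionic eminence markers had a median of -0.31, with 6 of 8 below 0 and a summed level of 248 to 294 CPM in the wild type and 228 to 249 CPM in the mutant. Their 3 genes at an unadjusted p under 0.05 were Dlx6, Sp9 and Dlx5 (log2 fold changes -0.98, -0.56 and -0.42, named after their values were seen). Intermediate progenitor markers had a median of 0.07 over 6 tested genes, and markers of cortical neurons, which define this tissue, had -0.02 over 8, with a summed level of 4401 to 5030 CPM over the 6 libraries. Medians were -0.15 for microglia markers (6 of 6 below 0), 0.07 for endothelial, 0.22 for erythroid and 0.26 for meninges markers, with 0 genes of these 4 lists at an unadjusted p under 0.05. The part of these markers in the values of the replication and mitosis genes was not tested.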

How the data were processed

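Per the labels, total RNA of frozen cortex was purified with DNase treatment and sequenced. Tools named by the submitters' processing notes are HISAT2 2.0.4, StringTie and edgeR, with builds GRCm38.p4 and mm10; not given in the sources used here: the counting program, its strand setting and the annotation release. The deposited table holds, per the file headers, whole-number counts per gene and library, FPKM values, and the p-values and adjusted p-values of the authors' own comparison.

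Deposited counts were filtered by filterByExpr, scaled by TMM and compared with a robust 2-sided quasi-likelihood test in edgeR 4.0.16 (R 4.3.3), with Benjamini-Hochberg adjustment over 16274 genes and a threshold of 0.05. The SE and the 95% interval come from that fit. CPM values are TMM-normalized; scores use log2 CPM with a prior count of 2. The edgeR fit, and no other step, was also run on counts simulated with known changes, with an outcome not reported here. That simulation used the trended dispersion only, so it does not cover genes that spread more than the trend. Each result was recomputed with another test (limma-voom of limma 3.58.1, or the Wald test of DESeq2 1.42.0), DESeq2 size factors, a replicate block, a filter at 1 count in all or at a mean of 1 CPM, rows without X, Y and mitochondrial genes, and each library left out. The exon length scale (GENCODE M21 exons) and the level comparison with each library left out were added after seeing the data. Coordinates of genes are those of the deposited table.

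The members, role groups and lists were chosen with earlier results of these data known. Genes are named by a rule: 31 core genes whatever their result, the gene with the highest FPKM and the gene with the smallest p of each role, those whose genotypes do not overlap, and 3 genes of each pathway list. Of the pathway list genes that the rule takes, 1 is not reported here. Any other gene was named after its values were seen.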

Additional observations from a re-analysis of the deposited data

How the results depend on the processing

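The count of replication and mitosis genes past the threshold was 0 in each of the 13 alternatives. Over all genes the count was 18; it was 58 with the DESeq2 Wald test, 10 without X, Y and mitochondrial genes, and 8 to 19 with 1 library left out (8 without the mutant replicate 3). Of the 45 named members, 18 kept their sign in all 13 alternatives and 27 did not, the largest of these with a log2 fold change of 0.20. With 1 library left out, genes whose genotypes do not overlap numbered 9 to 18 (10.2% to 20.5% of the members, against 14.1% to 21.2% of all genes tested), since 2 libraries separate from 3 more often. Group medians ranged, with 1 library left out, from -0.17 to -0.040 for origin licensing, -0.094 to 0.10 for S-phase and mitotic cyclins and CDKs, -0.12 to 0.0042 for the APC/C group and -0.14 to -0.024 for centromere genes; the cause was not tested. The median level of the other members was 5.58 times that of the division genes by FPKM and 4.79 times by CPM per kilobase of exon. Low counts limit Cdc20b, Ccna1 and Cdk18 most.

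The labels number the replicates 1 to 3 in both genotypes. Same-numbered libraries correlated at -0.12, 0.09 and -0.02 in their deviations from the genotype means over 10790 genes. These values gave no sign of pairing by number, but they cannot exclude a weaker shared effect. With the number as a block, edgeR called 9 genes over all and 0 of the members; Tle4 was not among those called (edgeR adjusted p = 0.207), and the unadjusted p of Cdc123 was not under 0.05.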
